A study of Mus musculus with 6 samples.

Results

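The 8 genes described here are Chat, Slc18a3, Slc5a7, Ache, Lhx8, Gbx1, Isl1 and Ngfr. They are grouped as genes of basal forebrain cholinergic neurons, with the homeobox gene Gbx1 beside them, and several are also made by other cells. They were chosen by symbol, with earlier results of the same comparison known, from 22584 genes in the RNA table, and each was found once. All 6 libraries were made from brain tissue of wild-type mice (WT in the labels). In the AllPrep group (3 libraries) RNA was isolated with the AllPrep DNA/RNA/Protein Mini Kit, a column kit that separates DNA, RNA and protein from 1 lysate. In the control group (3 libraries, labelled Ctrl) RNA was extracted with TRIzol, a phenol and guanidine reagent, and precipitated with isopropanol. The comparison asks how far RNA measured after the kit differs from RNA measured after the conventional reagent. The labels name no strain, age, sex, brain region or animal. P-values therefore rest on the spread over 6 libraries, and how much of that spread is technical is unknown.

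Acetylcholine is made from choline and acetyl-CoA by choline acetyltransferase, loaded into vesicles by a dedicated transporter and broken down in the synaptic cleft by acetylcholinesterase, after which choline is taken up again. In the forebrain it comes from projection neurons of the septum, diagonal band and nucleus basalis, which supply cortex and hippocampus, and from interneurons of the striatum. These neurons arise in the ventral forebrain under the transcription factor Nkx2-1, and the LIM-homeodomain factors Lhx8 and Isl1 direct their cholinergic fate. Adult basal forebrain cholinergic neurons depend on nerve growth factor, one of the ligands of Ngfr.

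Total counts ran from 36395330 to 50937858 per library. Levels are CPM, a gene's count scaled to a library total of 1000000, and intervals are exact 95% binomial intervals (Clopper-Pearson) that cover counting error only. Even numbers made up 64.2% to 70.9% of the counts between 1 and 20, which may mean that each read of a pair was counted, so the intervals are too narrow. Across all genes, edgeR's quasi-likelihood test called 621 of 16325 tested genes at a Benjamini-Hochberg adjusted p below 0.05, 412 higher and 209 lower in AllPrep. Scaling by library size alone gave 343 higher and 305 lower, and leaving out 1 library left between 2 (without TRIzol replicate 2) and 205 calls. The 8 pan-neuronal markers summed to 7011 to 7717 CPM in TRIzol and 6741 to 7095 CPM in AllPrep. Of these markers 3 were lower in every AllPrep library than in any TRIzol library, a pattern that 20.6% of all tested genes showed. Snap25 was 1 of the 3 (2123 to 2696 CPM in AllPrep against 2866 to 3564 CPM in TRIzol). Map2 alone was higher in every AllPrep library (1499 to 1835 against 1078 to 1307 CPM), a pattern of 13.4%. Neither Snap25 nor Map2 passed the test.

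All 8 genes had a higher mean in AllPrep than in TRIzol, from 1.07-fold for Ache to 21.7-fold for Gbx1, but the libraries of a method differed widely among themselves. For 7 of the 8 genes the methods overlapped. Only Gbx1 had every AllPrep library above every TRIzol library, a pattern that 13.4% of all tested genes showed, and 0 of the 8 had the opposite pattern, shown by 20.6%. It was also the only 1 of the 8 past the adjusted p in edgeR, against 3.80% of all tested genes (2.52% higher and 1.28% lower in AllPrep), and 0 of the 8 passed when any 1 of the 6 libraries was left out. Since the 8 genes were chosen on this comparison, these counts and the folds below are descriptions, and nothing is read from them. The fold of a gene is the ratio of its mean CPM, while its log2 difference is that of the mean log2 CPM with a prior count of 2, so the 2 need not match. In bulk tissue, fewer cells of a type and less RNA per cell cannot be told apart.

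**Figure D1:**
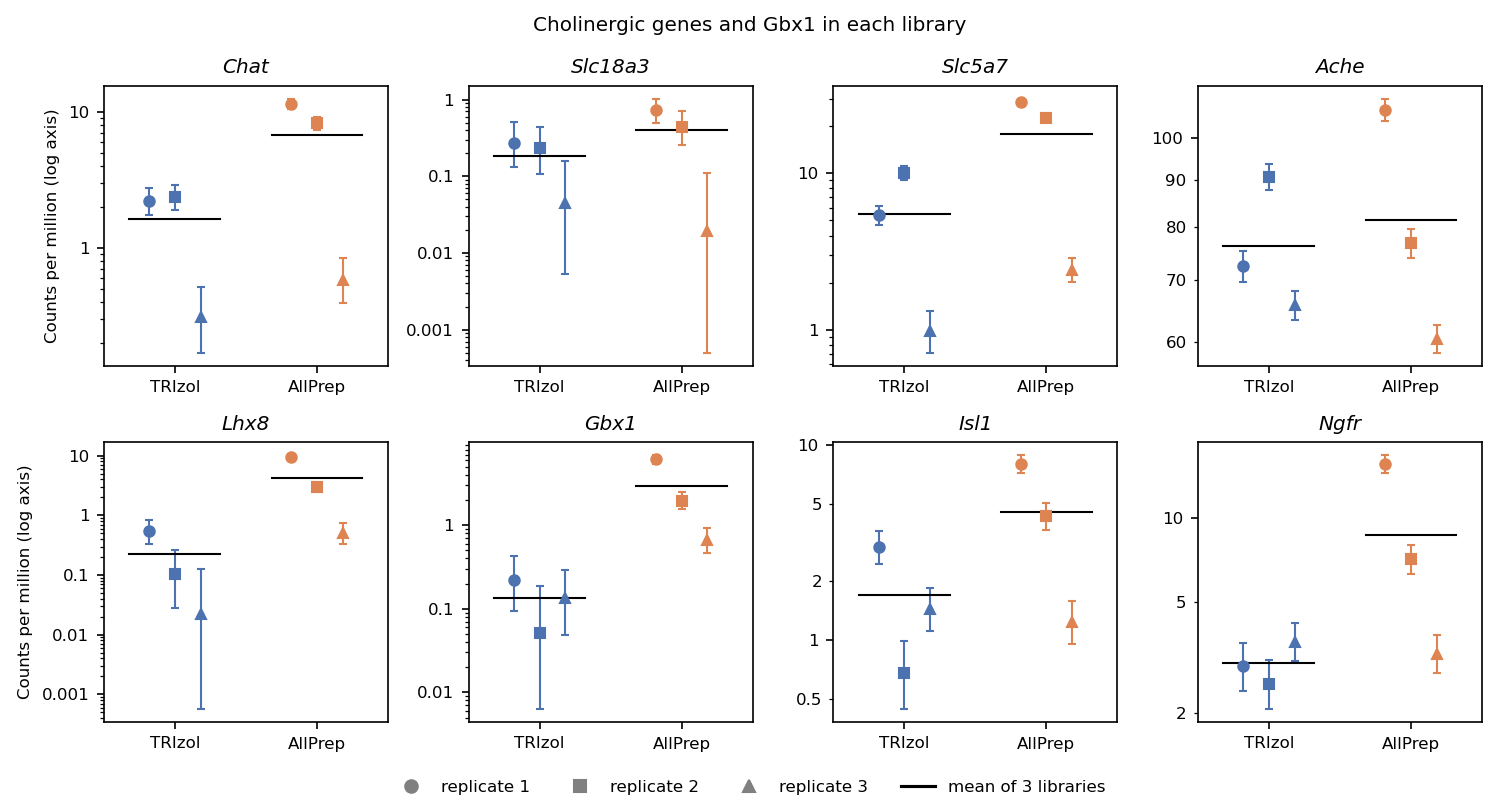
CPM (log axis, its range differing between panels) of the 8 genes in the 3 TRIzol and 3 AllPrep libraries; points are libraries, error bars exact 95% counting intervals and black lines the mean of 3 libraries. AllPrep replicate 1 is the highest library for all 8 genes, and AllPrep replicate 3 lies below at least 1 TRIzol library for every gene but Gbx1.

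Chat encodes choline acetyltransferase, the enzyme that makes acetylcholine and the defining marker of cholinergic neurons. It had 2.23, 2.36 and 0.311 CPM (81, 91 and 14 counts) in TRIzol replicates 1 to 3 and 11.5, 8.27 and 0.589 CPM (506, 319 and 30 counts) in AllPrep replicates 1 to 3. AllPrep replicates 1 and 2 stood above every TRIzol library, while AllPrep replicate 3 stood below TRIzol replicates 1 and 2. The means were 6.79 ± 5.61 CPM in AllPrep and 1.63 ± 1.15 CPM in TRIzol (SD, n = 3 each), a 4.16-fold difference. Within AllPrep the highest library held 19.5 times the lowest. The log2 difference, 1.65, was 0.75 when TRIzol replicate 3 was left out and 2.97 when AllPrep replicate 3 was.

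Slc18a3 encodes the vesicular acetylcholine transporter, which fills synaptic vesicles. Its gene lies inside the gene of Chat, on chromosome 14 and on the same strand, and shares 0 exon bases with it in GENCODE vM21, whose build is GRCm38. Whether reads from unspliced Chat RNA were counted on it was not tested. It was the scarcest of the 8, with 10, 9 and 2 counts in TRIzol replicates 1 to 3 and 32, 17 and 1 counts in AllPrep replicates 1 to 3. The order of the libraries was close to that of Chat, with the third library of each method lowest. AllPrep replicate 3, at 0.0196 CPM (interval 0.000497 to 0.109), and TRIzol replicate 3, at 0.0445 CPM (interval 0.00538 to 0.161), could not be told apart at this depth. The ratio of the method means was 2.15, and the log2 difference of 0.54 turned to -0.16 without AllPrep replicate 1 and to -0.03 without TRIzol replicate 3.

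Slc5a7 encodes the high-affinity choline transporter, which returns choline to the nerve ending. It had 5.39, 10.1 and 0.978 CPM in TRIzol and 28.3, 22.6 and 2.42 CPM in AllPrep replicates 1 to 3. The libraries fell in the same order as for Chat: AllPrep replicates 1 and 2, TRIzol replicates 2 and 1, AllPrep replicate 3, then TRIzol replicate 3. The means were 17.8 ± 13.6 CPM in AllPrep and 5.49 ± 4.56 CPM in TRIzol (SD, n = 3 each), a 3.24-fold difference. As for Chat, omitting replicate 3 of TRIzol gave the smallest log2 difference (0.65) and omitting replicate 3 of AllPrep the largest (2.72), around 1.60 with all libraries.

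Ache encodes acetylcholinesterase, which breaks acetylcholine down and is also made by cells that are not cholinergic. It had 72.5, 90.6 and 65.7 CPM in TRIzol and 107, 76.8 and 60.5 CPM in AllPrep. The lowest and the highest library were both AllPrep. A long noncoding RNA on the opposite strand shares 98 of the 4623 exon bases of Ache. Without a stated strand setting, reads of the 2 on the shared bases cannot be told apart. The means, 81.5 ± 23.7 CPM in AllPrep and 76.3 ± 12.9 CPM in TRIzol (SD, n = 3 each), differed by less than either spread. The log2 difference, 0.07, was -0.15 without AllPrep replicate 1 and -0.03 without TRIzol replicate 3.

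The start regions of the gene pair Chat and Slc18a3 and of the LIM-homeodomain genes Lhx8 and Isl1 are shown because these genes sit at the core of the cholinergic programme and their levels over the libraries are compared below. Each is the 250 bases before the start in RefSeq (GRCm38.p6, an older build than the GRCm39 used for the counts), read in the direction of transcription on the minus strand. They are chr14:32465910-32466159, chr14:32464851-32465100, chr3:154330561-154330810 and chr13:116309689-116309938. Capitals mark the CCAAT box CCAAT, the cAMP response core TGACG, the GC box GGGCGG and the homeodomain core TAAT, each searched on both strands, where capitals of neighbouring motifs can touch.
Chat: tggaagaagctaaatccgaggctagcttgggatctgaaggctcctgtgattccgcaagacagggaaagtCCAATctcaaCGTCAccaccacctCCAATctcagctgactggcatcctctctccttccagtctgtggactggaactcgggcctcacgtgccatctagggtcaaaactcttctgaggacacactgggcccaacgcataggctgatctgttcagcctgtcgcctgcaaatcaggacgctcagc
Slc18a3: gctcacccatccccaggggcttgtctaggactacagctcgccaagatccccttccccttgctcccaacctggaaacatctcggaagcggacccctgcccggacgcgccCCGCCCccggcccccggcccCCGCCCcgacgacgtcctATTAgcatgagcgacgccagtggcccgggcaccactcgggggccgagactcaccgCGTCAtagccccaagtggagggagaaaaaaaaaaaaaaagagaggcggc
Lhx8: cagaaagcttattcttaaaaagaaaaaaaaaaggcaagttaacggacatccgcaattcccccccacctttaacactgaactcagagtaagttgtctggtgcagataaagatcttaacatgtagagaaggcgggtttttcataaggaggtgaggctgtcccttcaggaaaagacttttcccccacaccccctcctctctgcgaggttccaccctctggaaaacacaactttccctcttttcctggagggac
Isl1: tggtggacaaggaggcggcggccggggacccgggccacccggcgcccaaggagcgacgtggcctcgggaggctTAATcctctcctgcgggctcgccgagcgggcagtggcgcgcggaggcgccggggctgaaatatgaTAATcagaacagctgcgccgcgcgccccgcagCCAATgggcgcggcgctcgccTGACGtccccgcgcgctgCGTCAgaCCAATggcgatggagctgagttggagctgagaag
Promoters were found for 7 of the 8 genes, Gbx1 being the gene with no entry. TGACG was found in 3 of the 7 (Chat, Slc18a3 and Isl1) and in 17.9% of 27025 promoters of the same length. CCAAT was found in 2 of 7 (Chat and Isl1) and in 34.5% of all. GGGCGG was found in 3 of 7 (Ache, Ngfr and Slc18a3) and in 32.9% of all, and TAAT in 2 of 7 (Slc18a3 and Isl1) and in 55.3% of all. The longer homeodomain site TAATTA, which overlaps TAAT, was in 0 of 7 and in 4.90% of all, and the Lhx8 window held none of these motifs. GC content was 54.8% for Chat, 66.0% for Slc18a3, 46.0% for Lhx8 and 71.2% for Isl1, against a median of 52.0% over all promoters, so the 4 windows shared no one base composition.

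Lhx8 drives cholinergic fate in the ventral forebrain. It had 0.549, 0.104 and 0.0222 CPM (20, 4 and 1 counts) in TRIzol and 9.35, 3.01 and 0.510 CPM (411, 116 and 26 counts) in AllPrep. AllPrep replicates 1 and 2 stood above all TRIzol libraries, and AllPrep replicate 3 lay beside TRIzol replicate 1, whose interval of 0.336 to 0.849 CPM held its value. The means were 4.29 ± 4.55 CPM and 0.225 ± 0.284 CPM (SD, n = 3 each), a 19.0-fold difference that rests on few TRIzol counts. The log2 difference of 3.77 became 2.82 with AllPrep replicate 1 left out and 4.86 with AllPrep replicate 3 left out.

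Gbx1 is a homeobox gene expressed in the developing ventral forebrain and spinal cord. It had 0.220, 0.0519 and 0.133 CPM (8, 2 and 6 counts) in TRIzol and 6.14, 1.97 and 0.667 CPM (270, 76 and 34 counts) in AllPrep. The lowest AllPrep library had an interval of 0.462 to 0.933 CPM, and the highest TRIzol library one of 0.0949 to 0.433 CPM. These intervals of the nearest libraries just missed each other. Both are too narrow if each read of a pair was counted, and could then overlap. The means were 2.93 ± 2.86 CPM and 0.135 ± 0.0840 CPM (SD, n = 3 each), a 21.7-fold difference. The log2 difference was 3.62 and ranged from 2.83 without AllPrep replicate 1 to 4.39 without AllPrep replicate 3.

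Isl1 encodes a LIM-homeodomain factor of cholinergic neurons that is also made in striatum and hypothalamus. It had 2.99, 0.675 and 1.44 CPM in TRIzol and 8.0, 4.31 and 1.24 CPM in AllPrep. Here AllPrep replicate 3 lay below TRIzol replicates 1 and 3, and TRIzol replicate 2 was the lowest library. The ratio of the means was 2.65. Its log2 difference of 1.26 lay between 0.67 (AllPrep replicate 1 omitted) and 2.00 (AllPrep replicate 3 omitted).

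Ngfr encodes the low-affinity neurotrophin receptor, carried by basal forebrain cholinergic neurons and, outside neurons, by meningeal and ensheathing cells. It had 2.94, 2.54 and 3.6 CPM in TRIzol and 15.6, 7.11 and 3.26 CPM in AllPrep. The 3 TRIzol libraries lay close together, and AllPrep replicate 3 fell among them. The ratio of the means was 2.86, and leaving out AllPrep replicate 1 or 3 moved the log2 difference from 1.24 to 0.68 or 1.80.

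Per kilobase of the longest GENCODE transcript, mean CPM over the 6 libraries was 21.4 for Ache, 2.25 for Slc5a7, 1.70 for Ngfr, 1.47 for Chat, 1.24 for Isl1, 1.09 for Lhx8, 0.440 for Gbx1 and 0.120 for Slc18a3. Ache stood apart: its lowest library, 16.4 CPM per kilobase, was above the highest of any other gene, 5.47 for Slc5a7 in AllPrep replicate 1. From Slc5a7 down, neighbours in this order had overlapping ranges over the libraries.

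The spread within a method, which the choice of the genes also drew on and which is a description, was wide beside that of other genes. The median tested gene had a highest AllPrep library 1.19 times its lowest, and a highest TRIzol library 1.24 times its lowest. On the log2 scale the range within AllPrep was 4.18 for Chat, 4.07 for Lhx8, 3.53 for Slc18a3, 3.53 for Slc5a7, 3.11 for Gbx1, 2.65 for Isl1 and 2.24 for Ngfr, each larger than that of at least 99.39% of tested genes, while the range of Ache, 0.82, exceeded 88.92%. Within TRIzol the range exceeded that of 99.53% of genes for Slc5a7, 99.43% for Lhx8, 99.15% for Chat, 97.97% for Isl1, 97.11% for Slc18a3 and 94.9% for Gbx1. Ngfr and Ache, at 70.73% and 68.25%, were closer to the usual spread there. Counting error is part of these ranges for Slc18a3, Lhx8 and Gbx1, which had at most 20 counts in any TRIzol library.

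The 8 genes did not share one profile. Profiles were compared by the root-mean-square difference of log2 CPM over the 6 libraries, each gene centred on its own mean. Chat and Slc5a7 were nearest to each other of all pairs, at 0.31 log2 units, and Slc18a3 was 0.70 from Chat. Isl1 and Ngfr formed a second close pair at 0.59, and Lhx8 and Gbx1 were 0.84 apart. Between the transmitter pair and Gbx1 the difference was larger, 1.57 from Chat and 1.65 from Slc5a7. TRIzol replicate 2 was above the mean for Chat, Slc18a3 and Slc5a7 (0.12, 0.20 and 0.60). It was far below the mean for Lhx8, Gbx1 and Isl1 (-2.17, -2.58 and -1.67), with 4 counts of Lhx8 and 2 of Gbx1. The distances over all libraries did not follow this division, as Lhx8 was 1.295 from Chat and 1.499 from Isl1.

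**Figure D2:**
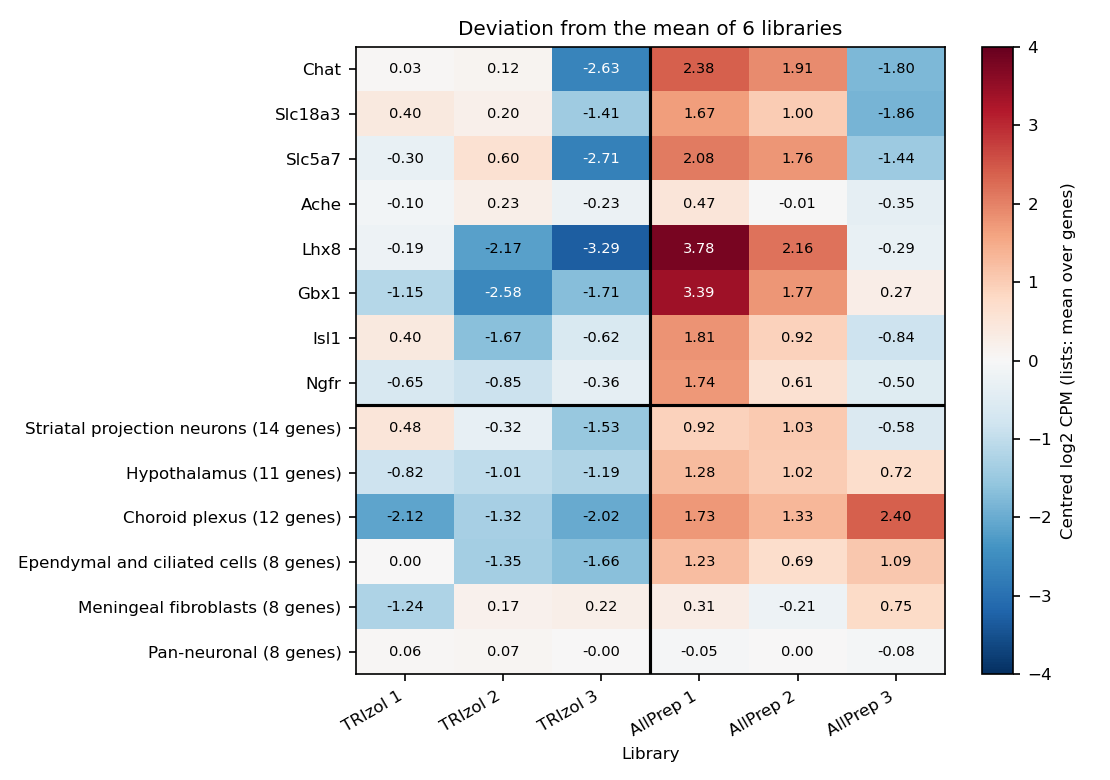
Log2 CPM of the 8 genes in each library, centred on the mean of the gene's 6 libraries (upper rows), and the mean centred value over the tested genes of 6 marker lists (lower rows); red is above and blue below the mean, and the vertical line parts TRIzol from AllPrep. AllPrep replicate 3 is below the mean for 7 of the 8 genes, with Gbx1 at 0.27, and is the highest library of the choroid plexus list at 2.40.

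Ratios between 2 genes within 1 library do not depend on its depth. The ratio of Chat to Slc5a7 counts stayed between 0.234 and 0.413 in the 6 libraries, a 1.77-fold span, while the CPM of Chat spanned 37.0-fold and that of Slc5a7 28.9-fold. The ratio of Lhx8 to Chat was 0.247, 0.0440 and 0.0714 in TRIzol and 0.812, 0.364 and 0.867 in AllPrep, so relative to Chat every AllPrep library held more Lhx8 than any TRIzol library. With 1 Lhx8 count in TRIzol replicate 3 the interval of that ratio, 0.00169 to 0.469, reached into the AllPrep values, as did that of TRIzol replicate 1, 0.143 to 0.407. For Gbx1 to Chat the ratios were 0.0988, 0.0220 and 0.429 in TRIzol and 0.534, 0.238 and 1.13 in AllPrep, and here the methods overlapped. Gbx1 and Lhx8 kept nearly equal ratios in AllPrep replicates 1 and 2, 0.657 and 0.655, and 1.31 in replicate 3. Ngfr to Chat was 1.32 and 1.08 in TRIzol replicates 1 and 2 and 1.36 and 0.859 in AllPrep replicates 1 and 2, but 11.6 and 5.53 in the third library of each method. These are the libraries with the least Chat, while their Ngfr, 3.6 and 3.26 CPM, was above that of TRIzol replicates 1 and 2.

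**Figure D3:**
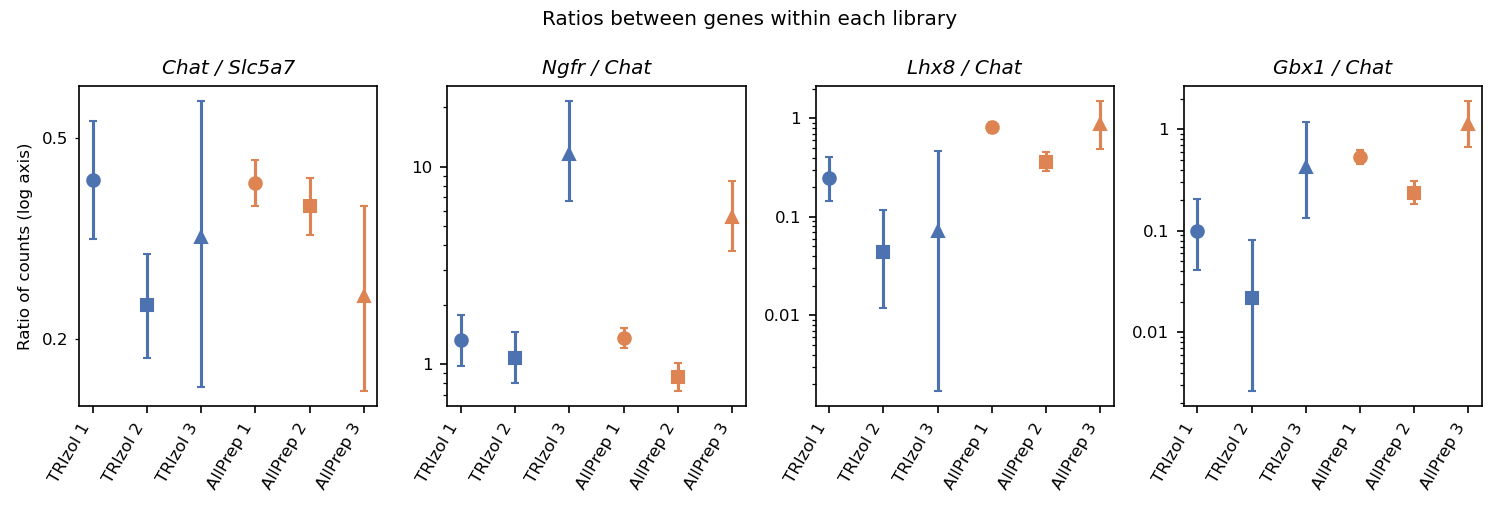
Ratio of counts between gene pairs (log axis) in each of the 6 libraries, with exact 95% counting intervals. Chat to Slc5a7 stays within 0.234 to 0.413, Ngfr to Chat is high in the third library of both methods (11.6 and 5.53), and Lhx8 to Chat is above 0.3 in AllPrep and below it in TRIzol.

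Nkx2-1, the ventral forebrain regulator upstream of Lhx8 and itself expressed in hypothalamus, had the profile nearest to Gbx1 among 13757 named genes averaging 1 CPM or more after either method, the other 7 cholinergic genes left out, at 0.62 log2 units against a median of 2.08 over these genes. It had 0.467, 0.156 and 0.178 CPM in TRIzol and 3.48, 2.15 and 0.667 CPM in AllPrep, and an edgeR log2 fold change of 3.01 (SE 0.68, adjusted p = 0.055) that did not pass. The next were Oxt, the oxytocin gene, at 0.71, Avp, the vasopressin gene, at 0.76, Sfta3-ps, which is next to Nkx2-1 in RefSeq's gene order, at 0.81, Gal, encoding the neuropeptide galanin, at 0.98, and Dnai3, a dynein subunit gene of cilia, at 1.02. Oxt and Avp are made in hypothalamic neurons. Lhx8, at 0.84, would have come between Sfta3-ps and Gal. The 6 were chosen for their likeness to Gbx1, so their distances below the median and their own difference between the methods follow from the choice. Of the 6, all but Avp averaged below 1 CPM in TRIzol and entered only through their AllPrep level. By Pearson's correlation over the same 6 libraries, only Nkx2-1 stayed among the first 6, since that measure leaves out the size of the change.

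**Figure D4:**
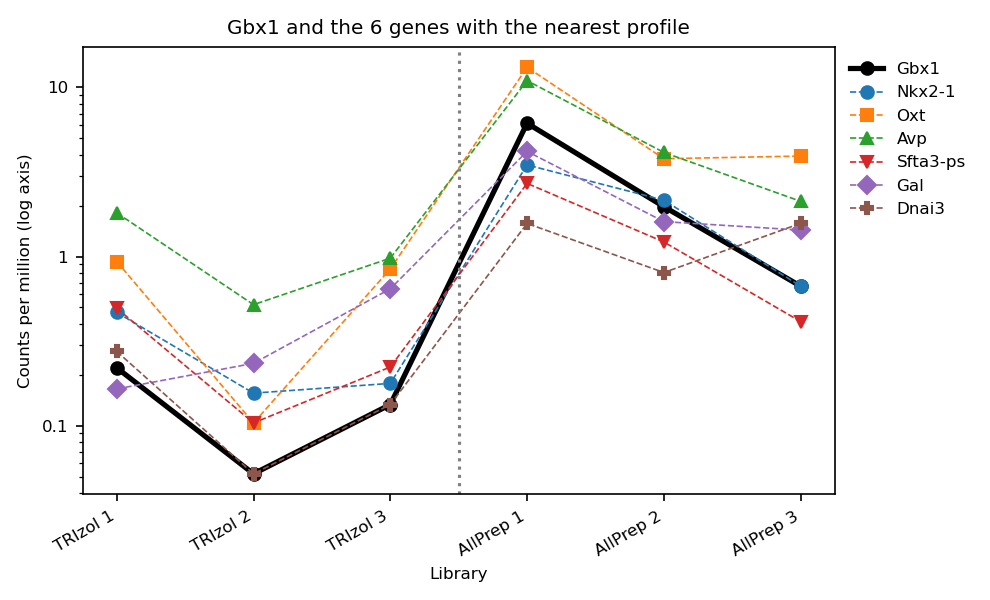
CPM (log axis) of Gbx1 (thick line) and of the 6 genes outside the cholinergic set with the smallest root-mean-square difference from its centred log2 profile, in the 6 libraries; lines only join the points of a gene. Nkx2-1 runs closest to Gbx1, both at 0.667 CPM in AllPrep replicate 3.

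For the mean profile of the 8 genes the nearest were Impg1 (0.32 log2 units), Upb1 (0.50), Sfta3-ps (0.57), Nkx2-1 (0.59), the serotonin receptor gene Htr1d (0.60) and Penk (0.61), against a median of 1.32 over all candidates. Penk, encoding proenkephalin and abundant in striatal projection neurons, had 159, 67.8 and 31.6 CPM in TRIzol and 230, 226 and 94.3 CPM in AllPrep, with the third library of each method lowest. The 6 were chosen for their likeness to this profile, so their small distances and their own difference between the methods follow from the choice. Impg1, Upb1, Sfta3-ps and Nkx2-1 were below 1 CPM in every TRIzol library and entered only through their AllPrep level. By correlation only Upb1 stayed among the first 6.

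Other genes listed with acetylcholine handling did not pass the test. The list also holds Slc17a8, Slc18b1 and choline genes not confined to cholinergic neurons. Of its 10 genes 0 were called, 5 had positive and 5 negative log2 fold changes, and the median was -0.03, against -0.01 over all tested genes. DESeq2 also called 0 of them, and 0 had an unadjusted p below 0.05 in edgeR. The most abundant were Slc44a1, a choline transporter of most cells, at 85.5 ± 11.8 against 91.9 ± 8.56 CPM, and Chka, a choline kinase, at 64.9 ± 4.28 against 76.2 ± 10.7 CPM (AllPrep against TRIzol, SD, n = 3). Slc10a4, a vesicle protein of cholinergic and monoamine neurons, had 1.70, 12.3 and 0.356 CPM in TRIzol and 15.0, 7.32 and 0.785 CPM in AllPrep, lowest in the third library of each method like Chat, but with a TRIzol replicate 2 above AllPrep replicate 2.

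Of 13 further genes for neurotrophins and their receptors 1 passed, higher in AllPrep, and the median log2 fold change was 0.11. Ntrk3, the receptor of neurotrophin-3, rose from 157 ± 4.70 CPM in TRIzol to 254 ± 26.8 CPM in AllPrep (SD, n = 3 each), with every AllPrep library above every TRIzol library. edgeR gave it a log2 fold change of 0.74 ± 0.09 (SE) and an adjusted p of 0.020. The most abundant were Ntrk2, the BDNF receptor, with 882 ± 34.4 against 649 ± 91.5 CPM (edgeR adjusted p = 0.056), and Maged1, an adaptor that binds Ngfr, with 689 ± 35.5 against 655 ± 43.5 CPM.

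The ventral forebrain transcription factors and LIM cofactors had 1 of 17 tested genes called, higher in AllPrep, and a median log2 fold change of 0.45. Sox6, which acts in interneurons from the same germinal zone, rose from 24.0 ± 2.23 CPM in TRIzol to 37.4 ± 1.98 CPM in AllPrep (SD, n = 3 each), by 0.67 ± 0.09 (SE) on edgeR's log2 scale at an adjusted p of 0.023. The LIM-only genes Lmo4 and Lmo3 were the most abundant of the list and did not pass, at -0.26 and 0.76 in log2 fold change. Over the 3 lists, 2 of 40 tested genes rose, or 5%, beside 2.52% of all tested genes that rose. Neither call held without TRIzol replicate 2 or without AllPrep replicates 1 or 2, and Sox6 did not pass without AllPrep replicate 3 either. In the 3 fits that lost both, where 2, 13 and 27 genes of the whole table passed, the log2 fold change was 0.72, 0.79 and 0.78 for Ntrk3 and 0.74, 0.65 and 0.70 for Sox6. DESeq2 called 10 of the 40, all higher in AllPrep. Over all genes it called 2001 of 16443, of which 1248 were higher in AllPrep.

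Other cholinergic groups of the brain sit in the habenula and the brainstem. Of 9 habenular marker genes 0 passed, 4 had positive and 5 negative log2 fold changes, and the median was -0.92. TRIzol replicate 2 was the highest library for each of the 5 negative ones. Every AllPrep library was above every TRIzol library for 1 of the 9, a pattern of 13.4% of all tested genes, and below for 0. The 3 tested brainstem and motor neuron genes, Prph, Gata3 and Calca, had negative values and 0 passed. For 2 of them, Gata3 and Calca, every AllPrep library was below every TRIzol library, a pattern of 20.6% of all tested genes.

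Some markers of hypothalamus, choroid plexus and ependyma were called higher in AllPrep. Of 11 tested hypothalamic genes 5 rose and 0 fell, among them Sim1 (log2 fold change 3.29, adjusted p = 0.016), Hdc (1.66, adjusted p = 0.025) and Trh (2.51, adjusted p = 0.033 in edgeR). The summed level of the 14 listed genes was 10.9 to 13.2 CPM in TRIzol and 35.8 to 60.3 CPM in AllPrep. For the 12 choroid plexus genes, 11 rose, with Ttr, Calml4 and Tmem72 at the smallest p (log2 fold changes 5.83, 4.71 and 4.87), and the sum was 21.4 to 38.1 CPM against 633 to 1281 CPM. Their mean centred log2 level was 1.73, 1.33 and 2.40 in AllPrep replicates 1 to 3, with the third highest, where Chat stood at 2.38, 1.91 and -1.80. Of 8 tested ependymal genes 4 rose, led by Hydin (2.25), Dnah11 (2.73) and Rsph1 (1.54), with a sum of 8.62 to 18.7 against 26.9 to 37.8 CPM. Striatal projection neuron genes, 14 with positive values and 0 called, had centred means of 0.48, -0.32 and -1.53 in TRIzol and 0.92, 1.03 and -0.58 in AllPrep, and like Chat were lowest in the third library of each method. Their sums were 391 to 1225 CPM in TRIzol and 584 to 1885 CPM in AllPrep. The part of these tissues in the levels of the 8 genes was not tested.

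Meningeal fibroblast genes, a possible other source of Ngfr, had 0 of 8 called, with summed levels of 48.0 to 90.0 CPM in TRIzol and 59.7 to 126 CPM in AllPrep. Their lowest library was TRIzol replicate 1 (centred mean -1.24), where Ngfr stood between the other 2 TRIzol libraries. Of 5 tested ensheathing and Schwann cell genes 0 passed, with sums of 128 to 140 CPM in TRIzol and 126 to 138 CPM in AllPrep. Of 7 pituitary genes only Tshb, a thyrotropin subunit gene, was tested, at 1.24 to 1.66 CPM in TRIzol and 1.28 to 1.89 CPM in AllPrep, and it did not pass. The other 6 had at most 28 counts in any library. Pan-neuronal and glial lists had 0 of 8 genes called each, with medians of -0.11 and 0.02.

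**Figure D5:**
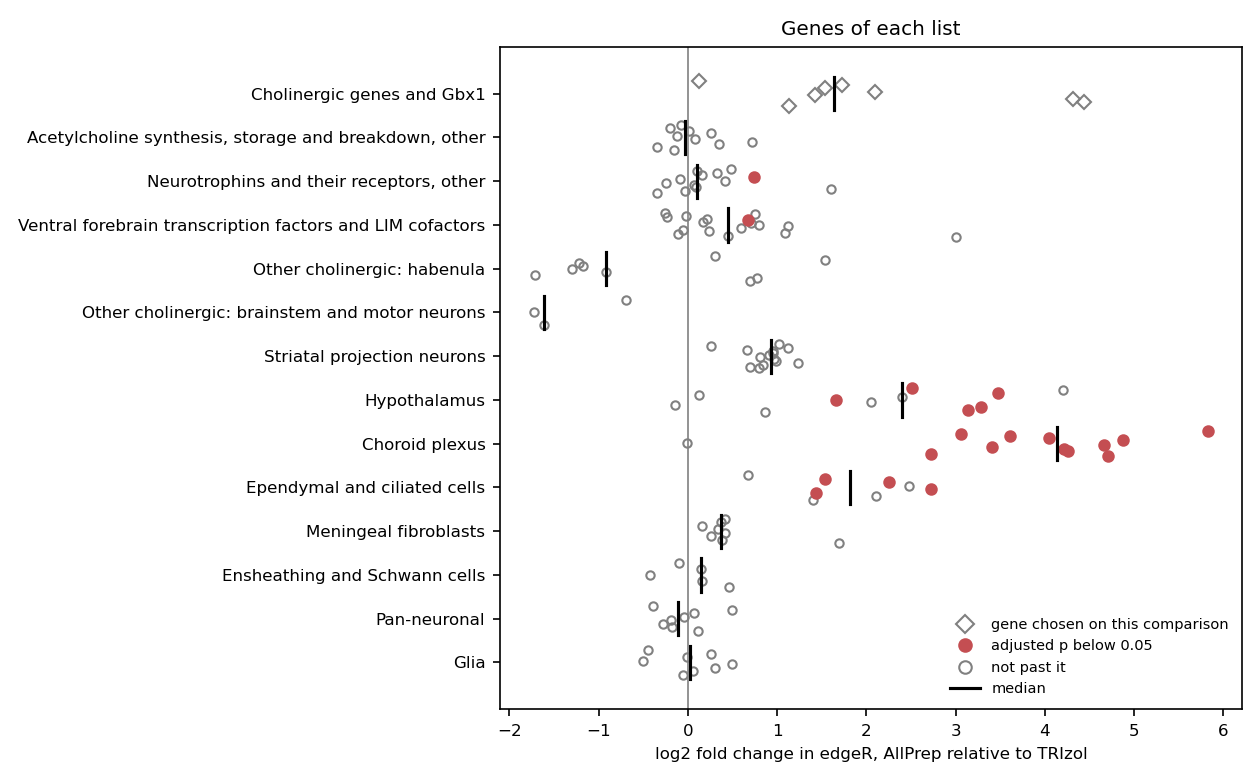
Log2 fold change in edgeR (AllPrep relative to TRIzol) of each tested gene by list, with the pituitary list (1 tested gene) left out; filled points passed an adjusted p of 0.05, open circles did not, diamonds are the 8 genes chosen on this comparison and shown without a call, and black bars are medians. Hypothalamic, choroid plexus and ependymal genes lie to the right (medians 2.40, 4.13 and 1.82). The list of other acetylcholine genes, which includes choline genes not confined to cholinergic neurons, centres on -0.03.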

How the data were processed

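RNA was sequenced from 6 brain libraries, 3 per method, grouped by title, and columns were matched to samples by name. T7 in vitro transcription amplified the libraries, which were read in pairs on an Illumina NovaSeq, per the labels' protocols. The authors deposited raw counts per gene. The submitters' processing notes name build GRCm39, STAR 2.7.9a, featureCounts, FastQC 0.11.9, cutadapt and limma 3.60.6, and no source used here gives the strand setting. From 22692 rows, 108 repeats of an Ensembl ID were removed. The 8 genes and all lists were chosen with earlier results of these data known. CPM used column totals. edgeR 4.0.16 in R 4.3.3 (filterByExpr, TMM, quasi-likelihood F-test, two-sided, no block) was fitted to all genes. Of 14 lists with 149 entries, 143 were in the table. Per list, called genes and the 2 most abundant are named, or for marker lists at most 3 called genes. Likeness used log2 CPM with a prior count of 2 and named the 6 nearest genes, leaving out unnamed gene models. Gene pairs for ratios, and Nkx2-1, Slc10a4, Snap25, Map2, Tshb, Prph, Gata3 and Calca, were singled out after values were seen. Results for 3 listed genes are not reported here. Libraries of a method differed by more than sampling noise (a chi-square of at least 14.3 for each degree of freedom) and were kept as separate replicates. Alternatives were library size alone, DESeq2 1.42.0 and its size factors, no filter, the replicate number as a block, a prior count of 0.5 and each library left out.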

Additional observations from a re-analysis of the deposited data

How the results depend on the processing

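The count of called genes over the whole table, 621, was 236 with the replicate number as a block, 2001 in DESeq2 and 2 to 205 with 1 library left out: 147, 2 and 205 without TRIzol replicates 1, 2 and 3, and 13, 27 and 28 without AllPrep replicates 1, 2 and 3. For the 40 other cholinergic, neurotrophin and ventral forebrain genes, 2 calls became 4 with the replicate block, 4 without a filter on low counts, 10 in DESeq2 and 0 to 3 with 1 library left out. The 0 calls came without TRIzol replicate 2 or AllPrep replicates 1 or 2, where 8, 10 and 8 genes had an unadjusted p below 0.05 in edgeR. No label says whether the replicate numbers pair the libraries. Deviations of same-numbered libraries correlated at -0.0481, 0.0064 and 0.1602 across genes. AllPrep replicate 3 correlated best with its own number, and AllPrep replicates 1 and 2 did not. Such correlations cannot decide whether libraries were paired. With the block, 4 of the 8 genes (Chat, Gbx1, Lhx8 and Slc5a7) were past the threshold, beside 236 of 16325 tested genes. In DESeq2 3 were (Gbx1, Lhx8 and Ngfr), beside 2001 of 16443. The 8 genes were chosen on this comparison, so nothing is read from these calls. The log2 differences of the 8 genes moved by less than 1 SD, the gene's own spread within methods, in all 72 recomputed values. Of these values 4 were negative, for Ache and Slc18a3. Leaving out 1 of 3 libraries cannot move a difference by that much, so no stability is read from it. For Chat the difference ran from 0.752 to 2.969 with 1 library left out. Counts of 1 to 10 in a library limit Slc18a3, Lhx8 and Gbx1, and 3 libraries per method limit every comparison. The causes of these changes were not tested.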

Other observations

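TRIzol replicate 2 was the highest library for 5 of 9 tested habenular genes and 2 of 3 tested brainstem genes, and the lowest for 2 of the habenular ones, Nr4a2 (37.2 CPM) and Gpr151 (0.415 CPM). Of the genes highest there, Chrnb3, a nicotinic receptor subunit gene, stood at 15.3 CPM there and at 1.22 to 5.71 CPM in the other 5 libraries, Chrna3 at 10.5 CPM, Irx2 at 7.76 CPM and Gata3 at 6.46 CPM. In the same library the ratio of Slc10a4 to Slc5a7 counts was 1.22, against 0.316 to 0.530 in the others. The genes of this paragraph were chosen after their values were seen.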
